A study of Homo sapiens with 12 samples.

Results

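GATA2 and the transcription factors and receptors that work with GATA factors in erythroid cells and mast cells were followed in U937 cells, a human acute myeloid leukaemia (AML) line of monocytic character, after decitabine and all-trans retinoic acid. The members were 10 genes: GATA1, GATA2, GATA3, TAL1, LMO2, KLF1, GFI1B, MITF, KIT and ZFPM1. They were taken as every transcript of the count matrix that carries one of these symbols, and the group was chosen by a readout, since GATA2 rose with decitabine in these libraries. Of 197782 transcripts in the matrix, 55 belonged to these genes and 28 of those had a read in at least 1 library. In 3 or more libraries 15 of them reached 10 normalized reads, and 11 of these, from 8 genes, were protein-coding and were tested among 9016 transcripts.

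GATA factors are zinc finger proteins that bind the sequence GATA in promoters and enhancers. GATA2 maintains haematopoietic stem and progenitor cells and mast cells, and GATA1 takes over from it in erythroid cells, megakaryocytes, eosinophils and mast cells. Both act with TAL1, a basic helix-loop-helix factor, through the bridging protein LMO2, and GATA1 also needs the cofactor ZFPM1, known as FOG1. KIT, the receptor for stem cell factor, is the surface receptor on which mast cells and erythroid progenitors depend. Decitabine is a cytidine analogue that depletes DNA methyltransferases, and retinoic acid is the ligand of the retinoic acid receptors.

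The 12 RNA-seq libraries fell into 4 groups of 3. One group was untreated, 1 received 200 nM decitabine (DAC), 1 received 1 µM all-trans retinoic acid (ATRA), and 1 received both (DAC + ATRA), with DAC renewed daily for 3 days. By the labels ATRA was given over the same days, whereas the study's methods add it after the DAC doses had begun, so the length of the ATRA exposure is not certain. Per sample, the labels state 96 h without drug and 72 h with it, whereas the series' design text and the study give 72 h for all, so if the sample labels hold, the time and the drug cannot be told apart in a comparison with untreated cells. The labels name GM-CSF in the medium of all groups. By the series' design text the replicates were technical triplicates, all of 1 cell line, and p-values measure only the spread between them. From 8042435 to 10683593 reads were counted per library, and 3 reads correspond to 2.50 to 3.71 normalized reads. In bulk RNA, fewer cells with a transcript and less transcript per cell cannot be told apart. All 10 monocytic markers listed had reads, with summed levels of 62112 to 69291 normalized reads in untreated cells, 39008 to 56686 with DAC, 42562 to 60061 with ATRA and 36300 to 39065 in the combination. Within this sum MPO had a mean of 52120 in untreated cells and 14973 in the combination, while LYZ went from 164 to 1097 and ITGAM from 202 to 2725. Reads were counted per transcript, and genes used by every cell could have almost none: TUBB, with 32 transcripts listed, had 1 read and ACTB had 1356 over the 12 libraries. A low count is therefore given only as what is listed, and no level is compared between genes.

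GATA2 has a distal and a proximal RefSeq start. Decitabine lowers the methylation of CpG dinucleotides, and promoter windows of GATA2, GATA1, TAL1 and KIT are shown with each CG in capitals. Each window runs from 250 bases before to 50 bases after a RefSeq start on GRCh38.p14 and is written 5′ to 3′ on the strand of the gene. RefSeq windows were found for 9 of the 10 genes.
GATA2 distal, chr3:128493152-128493451, minus strand: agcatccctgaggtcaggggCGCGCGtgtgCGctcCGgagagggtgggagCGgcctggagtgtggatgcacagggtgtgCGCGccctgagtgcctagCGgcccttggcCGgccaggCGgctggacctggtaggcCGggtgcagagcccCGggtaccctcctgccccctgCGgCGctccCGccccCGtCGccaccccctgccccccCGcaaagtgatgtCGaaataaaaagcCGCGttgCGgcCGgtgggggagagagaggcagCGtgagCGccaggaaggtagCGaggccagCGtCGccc
GATA2 proximal, chr3:128488481-128488780, minus strand: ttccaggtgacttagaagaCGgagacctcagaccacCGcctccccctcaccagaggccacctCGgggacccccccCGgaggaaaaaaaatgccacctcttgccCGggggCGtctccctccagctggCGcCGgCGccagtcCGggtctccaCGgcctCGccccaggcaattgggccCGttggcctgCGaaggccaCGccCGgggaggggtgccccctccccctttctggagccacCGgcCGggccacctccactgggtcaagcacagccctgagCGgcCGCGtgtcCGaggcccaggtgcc
GATA1, chrX:48786340-48786639, plus strand: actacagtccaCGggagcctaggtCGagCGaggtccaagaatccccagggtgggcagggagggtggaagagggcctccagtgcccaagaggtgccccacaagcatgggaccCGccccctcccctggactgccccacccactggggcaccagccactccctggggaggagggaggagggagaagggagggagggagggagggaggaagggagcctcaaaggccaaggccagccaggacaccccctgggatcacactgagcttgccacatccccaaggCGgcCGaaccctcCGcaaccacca
TAL1, chr1:47231666-47231965, minus strand: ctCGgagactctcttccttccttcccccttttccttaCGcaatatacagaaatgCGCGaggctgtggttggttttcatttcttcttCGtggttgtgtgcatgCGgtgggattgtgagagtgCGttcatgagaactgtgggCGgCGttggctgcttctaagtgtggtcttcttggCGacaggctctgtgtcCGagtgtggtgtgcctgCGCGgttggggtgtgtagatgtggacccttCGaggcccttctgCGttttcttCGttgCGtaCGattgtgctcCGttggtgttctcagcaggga
KIT, chr4:54657707-54658006, plus strand: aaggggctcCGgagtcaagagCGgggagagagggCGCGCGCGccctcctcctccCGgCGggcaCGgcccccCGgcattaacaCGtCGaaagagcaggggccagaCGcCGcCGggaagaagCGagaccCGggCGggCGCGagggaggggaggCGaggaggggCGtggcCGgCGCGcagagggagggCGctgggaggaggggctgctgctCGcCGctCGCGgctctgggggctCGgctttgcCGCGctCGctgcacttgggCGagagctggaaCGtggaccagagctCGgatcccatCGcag

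The distal GATA2 window held 29 CG and the proximal one 22, against a median of 14 over 35116 RefSeq windows of this length. The TAL1 window printed, that of its leading transcript, held 19, the GATA1 window 7 and the KIT window 38. The windows of ZFPM1, KLF1 and the leading GATA3 transcript, not printed, held 47, 6 and 29. A second TAL1 window (chr1:47232286-47232585), where no TAL1 transcript with reads and known coordinates starts, held 30. None of the 5 printed windows contains the letters GATAA on either strand, which 22.7% of all windows do. The second TAL1 window holds 2 such matches and the KLF1 window 1. Methylation of these windows was not analysed here.

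The leading GATA2 transcript, ENST00000341105, starts in the distal window (chr3:128479427-128493201, minus strand, 6 exons) and took 4038 of the 4463 GATA2 reads. Its normalized read count was 3.68, 4.55 and 6.47 in untreated cells and 838, 1011 and 1106 with DAC. With ATRA it was 2.11, 1.82 and 2.50, and with DAC + ATRA it was 361, 422 and 361. The groups did not overlap, and their order was DAC, DAC + ATRA, untreated and ATRA. The values with DAC chose the members and are a description: the mean was 985 ± 136 (SD, n = 3) against 4.90 ± 1.43, a log2 fold change of 7.40 (SE 0.20).

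The comparison of DAC + ATRA with ATRA has none of the libraries by which GATA2 was chosen in either arm, although the fit takes the spread from all 12 libraries. There the mean of ENST00000341105 was 381 ± 35.4 (SD, n = 3) against 2.14 ± 0.34, with a log2 fold change of 6.93 (SE 0.20, limma adjusted p = 3.46e-16). Since the ATRA libraries held 7 reads in all, the ratio of the 2 groups was 177 with a 95% counting interval of 85.5 to 441. This interval covers counting error only. The transcript passed the filter only through the libraries with DAC, which favoured a difference, so its call is no independent support. It was called under each of the 20 alternatives that gave a value, 1 of which sums all GATA2 transcripts, at adjusted p of at most 3.23e-12, the fits without a filter and with only the 6 libraries compared included, while a filter on every library left it out. With DAC + ATRA its level was 2.59 times lower than with DAC alone (95% counting interval 2.42 to 2.78, log2 fold change -1.36, SE 0.20). The untreated and ATRA groups held 16 and 7 reads, with a log2 fold change of -0.89 (SE 0.20) for ATRA against untreated. The ratio of untreated to ATRA, 2.27, had a counting interval of 0.884 to 6.52. This interval includes 1, so the order of these neighbours is uncertain at this depth. The last 2 comparisons share libraries with the one that chose GATA2 and are given with no test.

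**Figure D1:**
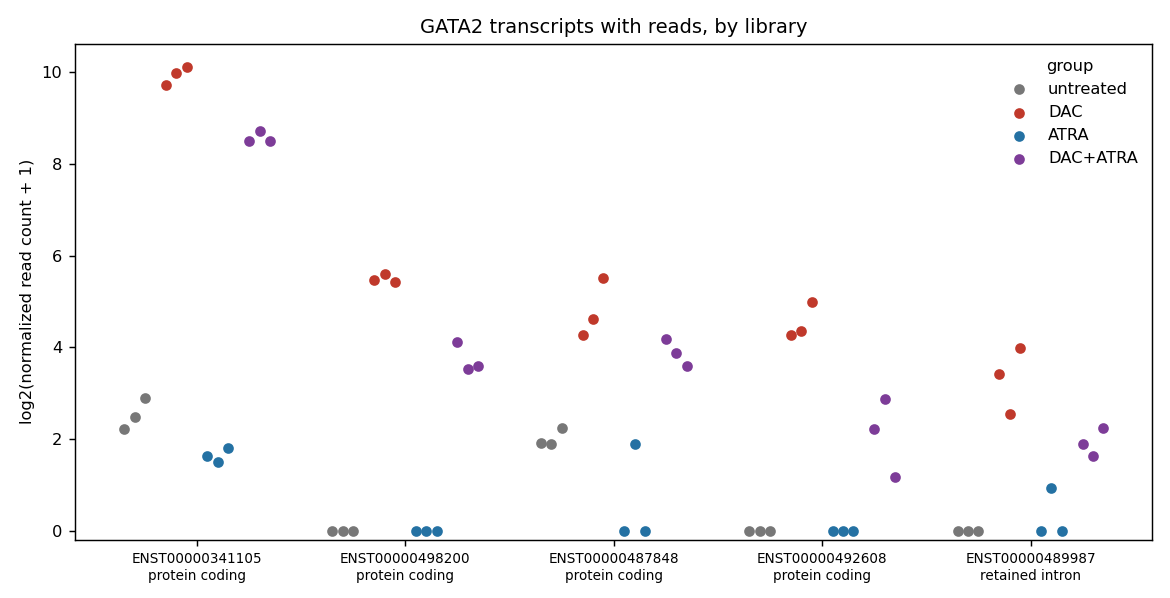
GATA2 transcripts with reads: the vertical axis is log2(normalized read count + 1), the horizontal axis the transcript with its GENCODE 44 biotype, and each point 1 of 3 libraries of the group given by colour. In all 5 transcripts the DAC libraries and the DAC + ATRA libraries lie above the untreated and ATRA libraries.

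The other GATA2 transcripts had the same order of the DAC groups at far lower counts. ENST00000498200, which also starts in the distal window, had 43.2, 47.7 and 41.8 normalized reads with DAC and 16.3, 10.5 and 11.1 with DAC + ATRA, and no read in the 6 other libraries. It was at least 14.0-fold higher with DAC + ATRA than with ATRA, against a floor of 3 reads over the ATRA group (limma adjusted p = 1.76e-08). ENST00000487848, which starts in the proximal window (chr3:128479427-128488530), had 2.76, 2.73 and 3.69 normalized reads in untreated cells, 18.4, 23.4 and 44.8 with DAC, 0, 2.73 and 0 with ATRA and 17.2, 13.7 and 11.1 with DAC + ATRA. Transcripts from both starts were thus higher in the groups with DAC. The proximal transcript rose with DAC + ATRA against ATRA by a ratio of 15.5 (95% counting interval 4.94 to 78.2, limma adjusted p = 7.17e-06). ENST00000492608, which starts between both windows, had 18.4, 19.5 and 30.9 normalized reads with DAC, 3.62, 6.32 and 1.24 with DAC + ATRA and none elsewhere, at least 4.16-fold higher than with ATRA against the same floor (limma adjusted p = 0.000531). The retained-intron transcript ENST00000489987 had 38 reads, 29 of them with DAC, and did not pass the filter. The DAC difference with ATRA minus that without ATRA was -0.48 (SE 0.29) on the log2 scale for ENST00000341105, 0.47 (SE 0.66) for ENST00000487848, -1.75 (SE 0.50) for ENST00000498200 and -2.46 (SE 0.62) for ENST00000492608, with no test because it contains the choosing comparison. The last pair had no read without DAC, so their values equal the difference between DAC + ATRA and DAC. For ENST00000341105 the value was smaller with edgeR (-0.14), DESeq2 (-0.14) and a pseudocount of 0.1 (-0.23).

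**Figure D2:**
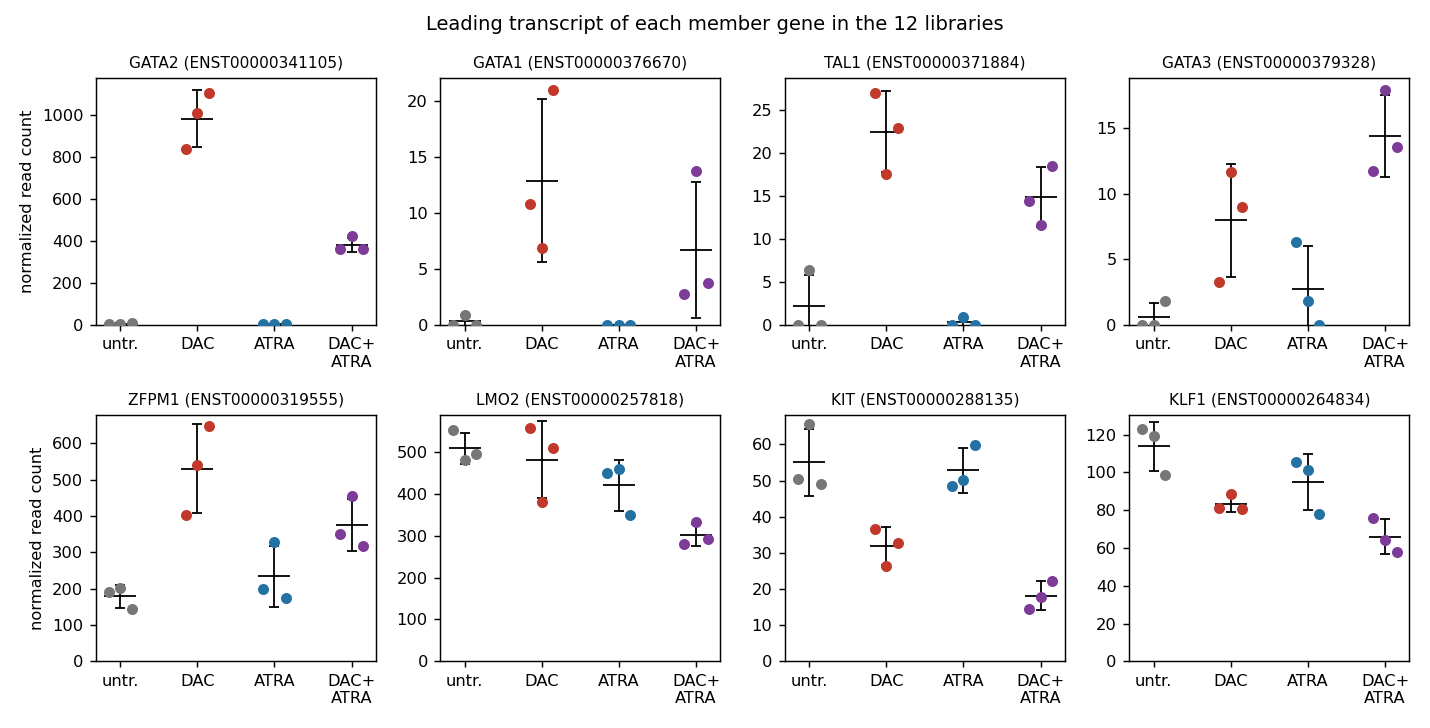
Leading transcript of 8 member genes: the vertical axis of each panel is the normalized read count from 0, points are single libraries, and bars give the mean and SD of 3 libraries, cut at 0. GATA2, GATA1 and TAL1 sit near 0 in both groups without DAC, except 1 untreated library at 6.37 for TAL1, while KIT is lowest with DAC + ATRA.

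GATA1, the erythroid and megakaryocytic GATA factor, had 1 transcript with reads, ENST00000376670 (chrX:48786590-48794311, plus strand, 6 exons). Its normalized read count was 0, 0.91 and 0 in untreated cells, 10.8, 6.82 and 20.9 with DAC, 0, 0 and 0 with ATRA, and 2.71, 13.7 and 3.71 with DAC + ATRA. All 6 libraries with DAC were above all 6 without it, at 3 to 21 reads each. Against ATRA, DAC + ATRA was at least 7.18-fold higher, with the ATRA group set to the floor of 3 reads (log2 fold change 2.67, SE 0.51, limma adjusted p = 0.000218). The transcript was tested only because the libraries with DAC lifted it past the filter, which favoured a difference, so its call is no independent support. Of the 19 reads with DAC + ATRA 13 came from the library numbered 11, without which the log2 fold change of GATA1 was 2.06 (limma adjusted p = 0.00248, range over 20 alternatives 0.000107 to 0.00248). The DAC and DAC + ATRA libraries overlapped (limma adjusted p = 0.212). GATA3, the GATA factor of T cells and innate lymphoid cells, had ENST00000379328 (chr10:8054688-8075198, plus strand) as its leading transcript. Its normalized read count was 0, 0 and 1.85 in untreated cells, 3.24, 11.7 and 8.96 with DAC, 6.34, 1.82 and 0 with ATRA and 11.8, 17.9 and 13.6 with DAC + ATRA. Its 3 highest libraries were those with both drugs, but the lowest of these held 13 reads and the highest DAC library 12. DAC + ATRA against DAC missed the threshold (limma adjusted p = 0.364). Like GATA1, GATA3 passed the filter only through libraries with DAC. It was higher with DAC + ATRA than with ATRA (log2 fold change 2.47, SE 0.61, limma adjusted p = 0.00263), and the call was lost with a pseudocount of 0.1, without the library numbered 9 (ATRA) and without the library numbered 11 (DAC + ATRA), at limma adjusted p = 0.0331, 0.0184 and 0.0111, with a range over 20 alternatives of 0.000142 to 0.0331. The 6 T cell markers listed had a summed level of at most 14.8 normalized reads in any library and none was tested, and the second GATA3 transcript with reads, ENST00000481743, had 27 reads in all. The summed T cell markers were 0 in the untreated libraries, 8.96 to 13.6 with DAC, 0.83 to 2.11 with ATRA and 8.42 to 14.8 with DAC + ATRA, and their part in the GATA3 values was not tested.

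TAL1, the partner of GATA factors at combined E-box and GATA sites, had 5 transcripts with reads. The leading one, ENST00000371884 (chr1:47216290-47231715, minus strand, 5 exons), had 0, 6.37 and 0 normalized reads in untreated cells, 27.0, 17.5 and 22.9 with DAC, 0, 0.91 and 0 with ATRA and 14.5, 11.6 and 18.5 with DAC + ATRA. The libraries with DAC lay above those without it, and 7 reads of the untreated group came from 1 library. With DAC + ATRA it was higher than with ATRA, which held 1 read, by a ratio of 47.6 (95% counting interval 8.09 to 1924, log2 fold change 3.65, SE 0.58, limma adjusted p = 3.44e-05). It too passed the filter only through the libraries with DAC, which favoured a difference, so its call is no independent support. The transcript ENST00000481091, with no defined coding sequence, went from 0.92, 0.91 and 2.77 normalized reads in untreated cells to 18.4, 18.5 and 19.9 with DAC, and from 0, 0 and 0 with ATRA to 11.8, 8.42 and 3.71 with DAC + ATRA. TAL1 summed over its transcripts was 1.84 to 7.28 in untreated cells, 39.9 to 55.8 with DAC, 0 to 0.91 with ATRA and 27.4 to 35.3 with DAC + ATRA. The sum was lower with ATRA than in untreated cells (log2 fold change -2.04, limma adjusted p = 0.000613), while ENST00000371884 alone was not (limma adjusted p = 0.54). The sum rested on 15 reads in untreated cells and 1 with ATRA, and only 1 of 20 alternatives, the sum itself, passed the threshold. TAL1 transcripts overlap an antisense gene and the libraries were strand-specific, but the strand setting of the counting is not given in the sources used here, so whether reads of that gene are counted for TAL1 is not known.

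LMO2, the adaptor that joins TAL1 to GATA factors, was read in every library. Its leading transcript ENST00000257818 (chr11:33858576-33892076, minus strand, 6 exons) had 551, 480 and 494 normalized reads in untreated cells, 556, 379 and 508 with DAC, 450, 459 and 350 with ATRA and 279, 332 and 293 with DAC + ATRA. The DAC libraries spanned the untreated ones, and the 3 DAC + ATRA libraries were the lowest of the 12. Against DAC alone the combination was lower by a log2 fold change of -0.66 (SE 0.14, limma adjusted p = 0.00196). This call was lost without the libraries numbered 4 or 6 (DAC) and 10 or 12 (DAC + ATRA), at limma adjusted p = 0.0218, 0.012, 0.0168 and 0.0111, and 17 of 21 alternatives kept it (range 2.91e-05 to 0.0218). Against ATRA the log2 fold change was -0.47 (SE 0.14) at a limma adjusted p = 0.00996, just past the threshold of 0.01, and 8 of 21 alternatives kept that call (range 6.11e-05 to 0.0483). It was lost without any of the libraries numbered 1, 2, 3, 6, 7, 8, 10, 11 or 12, at adjusted p of 0.011 to 0.0483. Of 3 non-coding LMO2 transcripts past the filter, ENST00000493667 had 17.3, 18.5 and 30.9 normalized reads with DAC and 8.14, 5.26 and 12.4 with DAC + ATRA, and missed the threshold among all transcripts (log2 fold change -1.30, SE 0.37, limma adjusted p = 0.0168). ENST00000464025 ran from 5.26 to 18.1 normalized reads over the 12 libraries and ENST00000465614 from 1.24 to 23.1, and neither passed a test.

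ZFPM1, the FOG1 cofactor that binds GATA1 and GATA2, had 1 transcript of note, ENST00000319555 (chr16:88453280-88537031, plus strand, 10 exons). Its normalized read count was 192, 201 and 143 in untreated cells, 403, 541 and 646 with DAC, 200, 330 and 173 with ATRA and 352, 455 and 319 with DAC + ATRA. The DAC libraries did not overlap with the untreated ones, with a mean of 530 ± 122 against 179 ± 31.2 (SD, n = 3) and a log2 fold change of 1.55 (SE 0.22), given with no test. With ATRA in both arms the libraries overlapped, because the ATRA library numbered 8 lay above the lowest DAC + ATRA library. The log2 fold change was 0.72 (SE 0.22) and missed the threshold (limma adjusted p = 0.0147). Without library 8 it was 0.99 and passed at limma adjusted p = 0.000277, without the DAC libraries 4 or 6 it passed at 0.00949 and 0.00661, and the range over 21 alternatives was 0.000277 to 0.102.

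KIT and KLF1 had their lowest libraries with DAC + ATRA. KIT ENST00000288135 (chr4:54657957-54740715, plus strand, 21 exons) had 50.5, 65.5 and 48.9 normalized reads in untreated cells, 36.8, 26.3 and 32.9 with DAC, 48.6, 50.1 and 59.9 with ATRA and 14.5, 17.9 and 22.2 with DAC + ATRA. The untreated and ATRA libraries overlapped, the DAC libraries lay below both, and the DAC + ATRA libraries lay below all others. KIT fell with DAC + ATRA against ATRA by a log2 fold change of -1.50 (SE 0.22, limma adjusted p = 1.06e-05), from a mean of 52.9 ± 6.17 to 18.2 ± 3.90 (SD, n = 3), and all 21 alternatives kept this call. Against DAC alone the log2 fold change of -0.79 (SE 0.22) missed the threshold (limma adjusted p = 0.0163), and none of 21 alternatives passed it. The difference between ATRA and untreated cells was -0.05 (SE 0.22, limma adjusted p = 0.938). KLF1, the erythroid factor that binds CACCC motifs of globin genes, had 1 transcript, ENST00000264834 (chr19:12884422-12887201, minus strand, 3 exons). Its normalized read count was 123, 119 and 98.8 in untreated cells, 81.1, 88.7 and 80.7 with DAC, 106, 101 and 78.2 with ATRA and 75.9, 64.2 and 58.1 with DAC + ATRA. The DAC + ATRA libraries were the lowest, just under the lowest ATRA library. Against ATRA the log2 fold change was -0.51 (SE 0.17) and missed the threshold (limma adjusted p = 0.0162). It passed with edgeR, with DESeq2, with scaling to total reads and without the ATRA library numbered 9, at adjusted p of 0.00371, 0.00397, 0.00427 and 0.00436, within a range over 21 alternatives of 0.00371 to 0.0774.

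GFI1B, a repressor of erythroid and megakaryocytic cells, and MITF, a factor of mast cells and melanocytes, were listed with almost no reads. GFI1B had 8 reads over 4 transcripts, 5 of them with DAC. MITF had 11 reads over 17 transcripts, of which 14 had none, with 5 reads in untreated cells, 3 with DAC, 3 in the combination and 0 with ATRA alone. No difference was detectable at this depth, and since transcripts that share their bases can lose their reads in this table, the level of both genes is not known from it. The remaining transcripts with reads, among them ENST00000294339 and ENST00000459729 of TAL1, ENST00000512959 of KIT and ENST00000563351 and ENST00000562417 of ZFPM1, had 1 to 44 reads each.

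In DAC + ATRA against ATRA, 7 of the 11 tested member transcripts, from GATA2, GATA1, GATA3 and TAL1, were called higher (25.9% of all 9016 were) and 2, from KIT and LMO2, were called lower (8.88% of all were). The 7 passed the filter only through the libraries with DAC, which favoured a difference, so their count is no support. Over all tested transcripts the median log2 fold change in this comparison was 0.16, and 0.04 with edgeR, where 2163 were higher and 1231 lower in place of 2335 and 801. In DAC against untreated the calls were 2763 higher (30.6%) and 784 lower (8.70%), with a median of 0.22, and 2294 and 1604 with edgeR at a median of 0.02. Each tested member transcript kept its sign in the 4 comparisons with edgeR, DESeq2 and scaling to total reads. For ATRA against untreated (6.47% of all higher and 2.67% lower), limma called 0 of the 7 member transcripts tested outside GATA2, with 0 at an unadjusted p under 0.05, and edgeR and DESeq2 also called 0. For DAC + ATRA against DAC (6.08% higher and 5.26% lower), it called 1 of 7, that of LMO2.

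**Figure D3:**
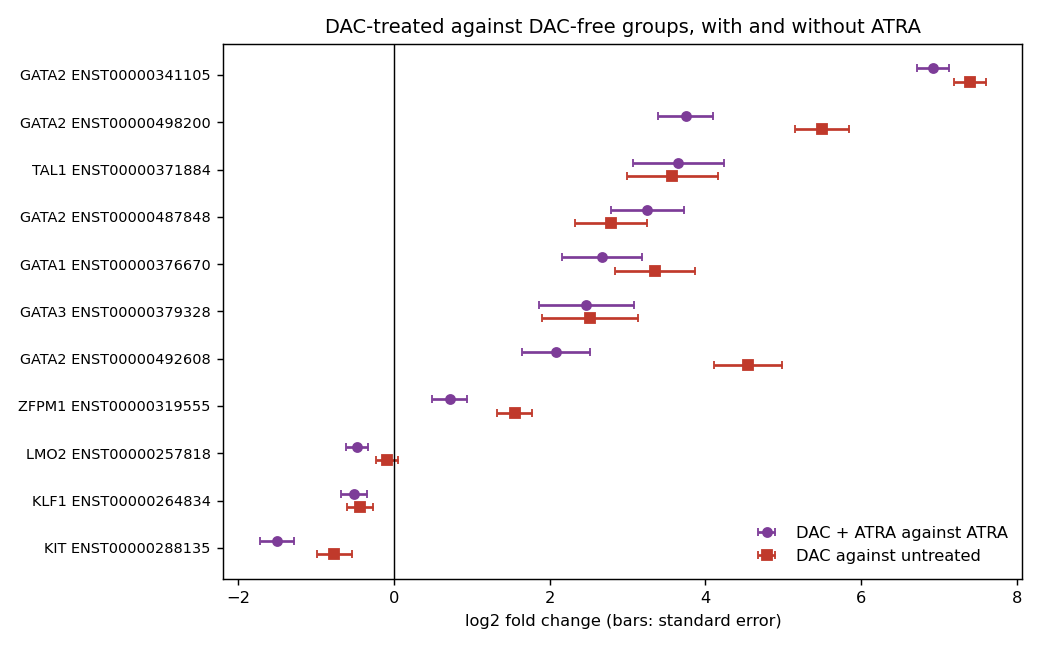
Tested member transcripts: the horizontal axis is the log2 fold change on the log2(normalized read count + 1) scale, with bars for the standard error, for DAC + ATRA against ATRA (circles) and DAC against untreated (squares). KIT, KLF1 and LMO2 lie below 0 in both, and the GATA2, GATA1, GATA3, TAL1 and ZFPM1 transcripts lie above 0 in both.

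The genes around these members were read from gene lists, by the leading tested transcript of each gene in DAC + ATRA against ATRA. Their counts stand beside 25.9% of all tested transcripts called higher and 8.88% called lower. Genes counted as tested only through the libraries with DAC reached 10 normalized reads in no library without it. The filter favoured a difference in them, so a high share in a list with such genes is no support. Others, such as ID1 and THBS1, reached 10 without DAC in fewer than 3 libraries and also needed the libraries with DAC. Among 25 other genes of the GATA cofactor complexes and their regulators, 16 were tested, 4 rose and 3 fell. ID1, an inhibitor of basic helix-loop-helix factors such as the TAL1 partners, rose most. Its mean went from 18.4 ± 7.28 to 83.1 ± 13.9 normalized reads (SD, n = 3, limma adjusted p = 6.16e-05). At 0.91 to 1.84 normalized reads in untreated cells and 9.99 to 23.2 with ATRA, it also needed the libraries with DAC to be tested. GFI1, the myeloid paralogue of GFI1B, fell most, from 145 ± 13.6 to 63.2 ± 15.1 (limma adjusted p = 7.07e-06). Of the other GATA-type zinc finger genes, 4 of 9 were tested and 2 rose: GATA6, a factor of endoderm and heart, went from 29.4 ± 5.73 to 108 ± 17.6 (limma adjusted p = 1.25e-06) and GATAD1 from 738 ± 24.2 to 998 ± 58.0 (limma adjusted p = 0.000906). Of 11 tested genes of KIT signalling 3 rose and 0 fell, near the background share, while edgeR called 1 lower and DESeq2 2. JAK2 had a log2 fold change of 0.86 and LYN, a Src family kinase, 0.62. TFEB, the lysosomal relative of MITF, rose by a log2 fold change of 1.81 (SE 0.28, limma adjusted p = 1.93e-05), and TFEC was not called.

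GATA1 and GATA2 are known to act on genes of mast cells, basophils and megakaryocytes. All 4 tested mast cell genes of 21 listed rose, 3 of them tested only through the libraries with DAC, IL1RL1 among these. IL1RL1, the interleukin 33 receptor of mast cells and basophils, had 0, 0 and 0 normalized reads in untreated cells, 121, 108 and 105 with DAC, 1.06, 0 and 0.83 with ATRA and 41.6, 33.7 and 39.5 with DAC + ATRA (limma adjusted p = 4.58e-10). SIGLEC8, the inhibitory lectin of eosinophils and mast cells, rose from 9.57 ± 4.52 to 24.8 ± 8.46 (limma adjusted p = 0.00305). CLC, the Charcot-Leyden crystal protein of eosinophils and basophils, had no read with ATRA and 28.0, 23.2 and 18.5 with DAC + ATRA, at least 25.7-fold higher against the floor of 3 reads, while the granule gene RNASE2 fell from 2994 ± 318 to 1545 ± 146 (limma adjusted p = 3.42e-06). In that basophil and eosinophil list 3 of 6 tested genes rose and 2 fell, and CLC was tested only through the libraries with DAC. Of 9 tested megakaryocyte genes 7 rose, 0 fell and 4 had been tested only through the libraries with DAC, GP9 and PPBP among them. THBS1, with 14.8, 10.9 and 3.33 normalized reads with ATRA and at most 0.92 in untreated cells, also needed the libraries with DAC. DESeq2 called 3 of the 4 mast cell genes and 6 of the 9 megakaryocyte genes, and edgeR the same counts as limma. GP9, a subunit of the von Willebrand factor receptor on platelets, went from 1.06, 0.91 and 2.50 normalized reads with ATRA to 163, 161 and 141 with DAC + ATRA, a ratio of 101 (95% counting interval 43.1 to 314, limma adjusted p = 2.45e-13). PPBP, a platelet chemokine, had the smallest called log2 fold change of the list (1.88), from 2.60 ± 1.70 to 11.6 ± 4.61 (limma adjusted p = 0.00169).

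In the erythroid list 18 of 48 genes had no read, 16 were tested, 2 rose and 1 fell, and 4 were tested only through the libraries with DAC, CA2 among them. CA2, carbonic anhydrase, had no read with ATRA and 19.0, 13.7 and 19.8 with DAC + ATRA, at least 18.9-fold higher against the floor (limma adjusted p = 7.24e-09). BCL11A, the repressor of fetal globin, fell from 47.4 ± 15.3 to 22.3 ± 6.55 (limma adjusted p = 0.00486). HBA1, HBA2, HBB and ALAS2, which define erythroid cells, were listed at 0 in all libraries, as were 4 of the 21 mast cell genes, among them TPSB2 and FCER1A. Other genes of both lists, such as HBG2 and SLC4A1 or TPSAB1, MS4A2 and HDC, had reads but no transcript that was tested. HBA1 and HBA2, and likewise TPSAB1 and TPSB2, are near-identical copies whose reads the counting can lose. The mast cell list summed to 31.2 to 46.4 normalized reads in untreated cells, 297 to 346 with DAC, 40.0 to 48.6 with ATRA and 260 to 272 with DAC + ATRA, and the megakaryocyte list to 2629 to 2832, 3686 to 4858, 1532 to 1734 and 2140 to 2326. Most of the latter is RAB27B, a secretory granule GTPase with means of 2481, 3334, 1384 and 1351, which was not called in DAC + ATRA against ATRA. Among the monocytic markers LYZ rose from 179 ± 35.8 to 1097 ± 124 (limma adjusted p = 1.43e-11) and MPO, the granule peroxidase, fell from 33033 ± 5970 to 14973 ± 676 (limma adjusted p = 4.12e-06). Of 5 melanocyte markers, TYR and MLANA were listed at 0, 1 was tested and 0 were called.

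**Figure D4:**
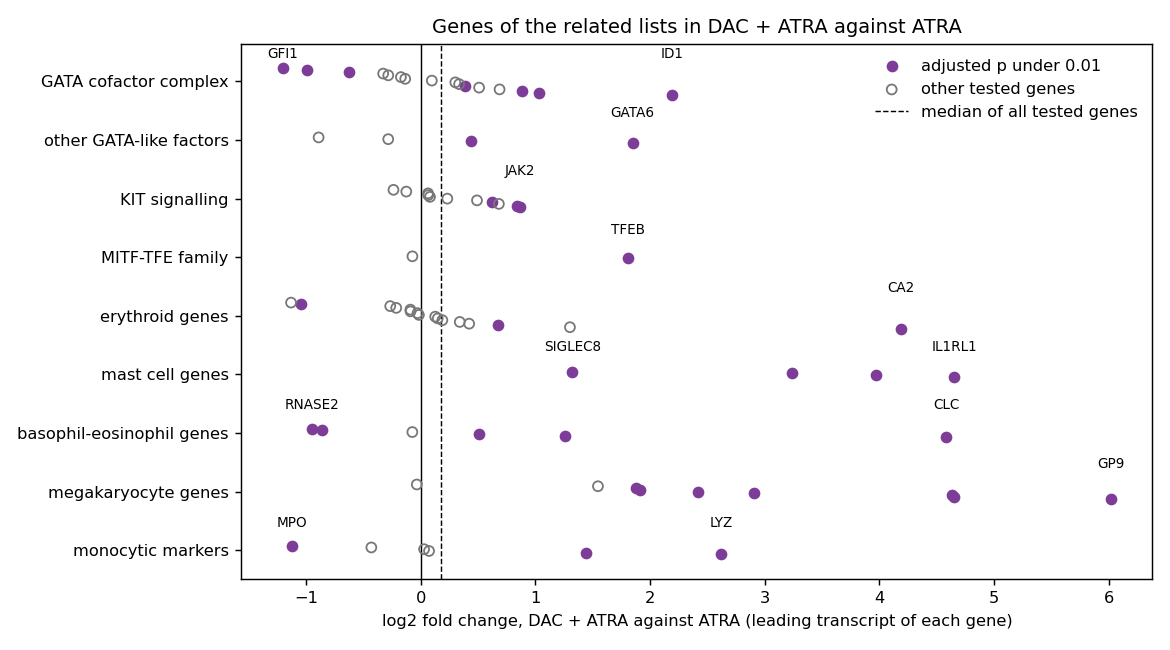
Related gene lists in DAC + ATRA against ATRA: the horizontal axis is the log2 fold change of each gene's leading tested transcript, rows are lists, filled points passed an adjusted p of 0.01 and the dashed line is the median of all tested genes. GP9 lies farthest to the right, and GFI1, BCL11A, RNASE2 and MPO lie left of 0.

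The genes whose pattern over the 12 libraries was most like that of ENST00000341105 of GATA2, by Pearson's r of log2(normalized read count + 1), were GP9 (r = 0.997), PTGFRN (0.997), ARHGEF17 (0.996), PRSS2 (0.995) and EFHC2 (0.995). PRSS2 has near-identical trypsinogen copies and its count is uncertain. Of the 9016 transcripts, 593 had an r of at least 0.95 with GATA2. The libraries share their 4 treatment groups, so the likeness is a description of the group order. Means of GP9 were 2.14, 319, 1.49 and 155 normalized reads in untreated, DAC, ATRA and DAC + ATRA libraries, and those of PTGFRN, a tetraspanin-associated membrane protein, were 1.23, 270, 0 and 108. ARHGEF17 followed the same order at much smaller differences, with means of 528, 1435, 471 and 1251. Among the members, r with ENST00000341105 was 0.94 for GATA1, 0.92 for TAL1, 0.85 for ZFPM1 and 0.76 for GATA3, and it was negative for KIT (-0.79), KLF1 (-0.68) and LMO2 (-0.31).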

How the data were processed

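U937 RNA-seq comprised 12 libraries in 4 groups of 3, grouped by the labels. The authors depleted ribosomal RNA, aligned paired-end reads to hg38 with STAR and counted them with htseq-count. Their versions, the annotation release and the strand setting are not given in the sources used here. The deposited signal values are the authors' reads per transcript divided by 1 size factor per library, and reads were recovered from the step of each column (100% whole within 0.001 of a read).

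The values were tested as log2(normalized read count + 1) with limma 3.58.1 (trend and robust) in R 4.3.3, in 1 fit of all 12 libraries, with Benjamini-Hochberg adjustment and a threshold of 0.01. Fold changes on this scale understate those of low transcripts. Tested were protein-coding transcripts (GENCODE 44) with at least 10 in at least 3 libraries. Non-coding transcripts come from a fit of all transcripts. edgeR 4.0.16 and DESeq2 1.42.0 on recovered reads, other scalings, filters and pseudocounts, sums over the transcripts of a gene, and leaving out each library were alternatives, and a range over alternatives of a transcript includes the sum of its gene. Scripts were tested on simulated data. Counting intervals are exact conditional 95% intervals, and a group at 0 was set to 3 reads over the group.

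Members and gene lists were chosen with earlier results of these data known. Each member's transcript with the highest mean was described in full, from each list the highest and lowest called gene, and 5 genes by likeness to GATA2. GATA2 was tested only in DAC + ATRA against ATRA, and no member was tested in DAC against untreated. Libraries are named by their number in the deposited table, which is not the replicate number of the labels.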

Additional observations from a re-analysis of the deposited data

How the results depend on the processing

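No paired analysis was possible because the columns of the deposited table carry no replicate numbers of the labels. Over 21 alternatives no member value that was called changed sign. With at least 10 normalized reads required in every library, fewer transcripts could be tested, and 1939 were called in DAC + ATRA against ATRA and 2283 in DAC against untreated, with 1 member transcript (KIT) called in the former. With all transcripts, 5688, 1351, 1699 and 6485 were called in DAC + ATRA against ATRA, ATRA against untreated, DAC + ATRA against DAC and DAC against untreated, and with values summed by gene symbol 5015, 1300, 1659 and 5493. Summing also brought 1 member (TAL1) past the threshold in ATRA against untreated. Leaving out 1 library gave 2628 to 3153, 622 to 1024, 751 to 1255 and 3001 to 3876 calls in the same order, 7 to 10 member transcripts in DAC + ATRA against ATRA and 0 to 1 in DAC + ATRA against DAC. The cause of these shifts was not tested beyond the numbers of features tested. Depth limits GATA1, GATA3 and TAL1, whose fold changes rest on few reads and grow with a smaller pseudocount.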
